A study of Mus musculus with 4 samples.

Results

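Pdk4, Angptl4, Plin2, Ucp2, Cpt1a, Acadm, Acadl, Hadha and Acot1 were examined as genes of fatty acid oxidation and targets of the peroxisome proliferator-activated receptors (PPARs) in single cells of the mouse heart. These 9 genes were taken by symbol from the 31253 genes in the deposited counts, and all 9 were found. RFP-positive cells of the left ventricle were sorted by FACS and sequenced with a 3′-end droplet assay (scecRNA-seq), which counts each captured transcript once by its unique molecular identifier (UMI). NC libraries 1 and 2 came from mice labelled with a Chow diet, in which the study's methods give 10% of the energy as fat. HFpEF libraries 1 and 2 came from mice labelled HFD plus L-NAME, a regimen of 60% fat with the nitric oxide synthase inhibitor L-NAME at 0.5 mg/ml, which is used to model heart failure with preserved ejection fraction. The study text gives 20 weeks on this regimen for its lineage-tracing HFpEF mice.

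Animals of both diets carried a tdTomato reporter and floxed Scarb1, the gene of the lipoprotein receptor SR-B1, with a tamoxifen-inducible Cre driven by the endothelial Cdh5 promoter. The floxed line has a C57BL/6N background, and the methods place tamoxifen at 7 weeks of age. The design names homozygous (S fl/fl/RΔEC) and heterozygous (S fl/+/RΔEC) mice under each diet, whereas the library labels give the diet alone, so genotype did not enter the comparison of HFpEF with NC. No source used here states how many mice stand behind a library, and p-values therefore measure the spread between these libraries only.

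PPARs are nuclear receptors that bind fatty acids and their derivatives and act as dimers with retinoid X receptors. Their targets include genes that carry fatty acids into mitochondria, oxidize them, store them in lipid droplets, or restrain the use of glucose when fat is abundant. The heart takes most of its fuel from fatty acids, and the endothelium lies between the lipids of the blood and the muscle.

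The dimer binds a direct repeat of AGGTCA with any 1 base (N) between the copies, 13 bases in all, and the 250 bases before the RefSeq start of each gene (GRCm38.p6) were searched for it on both strands. The table held 8 of the 9 genes, without Angptl4. An exact repeat was in 0.0335% of the 32851 promoters searched and in none of these 8. Below are Plin2, which held the closest match of the 8, Acadm, which held the next closest, and Pdk4, the gene with the widest separation of the diets in endothelial cells. Capitals mark the 13-base window nearest to the repeat where it had 3 or fewer mismatches.
Plin2: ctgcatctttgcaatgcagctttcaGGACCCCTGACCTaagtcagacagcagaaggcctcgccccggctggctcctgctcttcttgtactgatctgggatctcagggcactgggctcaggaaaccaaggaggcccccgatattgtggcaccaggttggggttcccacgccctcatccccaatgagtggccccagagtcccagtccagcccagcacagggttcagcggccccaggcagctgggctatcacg
Acadm: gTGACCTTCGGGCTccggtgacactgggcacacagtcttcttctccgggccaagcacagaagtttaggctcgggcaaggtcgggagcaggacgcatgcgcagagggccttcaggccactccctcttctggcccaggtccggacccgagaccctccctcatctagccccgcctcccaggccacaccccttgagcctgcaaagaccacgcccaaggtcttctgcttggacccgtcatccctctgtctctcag
Pdk4: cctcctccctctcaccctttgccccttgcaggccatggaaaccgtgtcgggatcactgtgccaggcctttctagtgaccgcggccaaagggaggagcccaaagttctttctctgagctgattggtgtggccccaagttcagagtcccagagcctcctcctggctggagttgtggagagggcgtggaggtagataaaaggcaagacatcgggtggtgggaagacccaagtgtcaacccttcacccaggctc

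The Plin2 window (chr4:86670060-86670309, minus strand) came within 2 mismatches of the repeat, as did 3.24% of all promoters. Acadm (chr3:153944644-153944893, minus strand) came within 3 mismatches, as did 21.3% of promoters. Pdk4 (chr6:5496279-5496528, minus strand) came no closer than 4 mismatches, which 74.5% of promoters reached. An exact single copy of AGGTCA, on either strand and also counted where it lay inside a marked window, occurred in 14.0% of all promoters and in 3 of the 8, Plin2, Acadm and Cpt1a. These matches describe the letters of the windows and do not show binding.

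The cell filter of the study left 40154 of 41843 barcodes, 5454 to 20882 per library. Median UMIs per cell were 3754 and 4127 in the NC libraries against 1736.5 and 1619 in the HFpEF libraries, so depth moved with diet and levels were computed from summed UMIs as counts per 1e6 UMIs (CPM). Marker gates gave 35602 endothelial cells (ECs), among them 27809 capillary, 4723 artery and 920 vein ECs. The summed level of 7 vein markers was 3048 to 3245 CPM in vein ECs and 80.6 to 107 CPM in capillary ECs, and 8 artery markers reached 2375 to 2842 CPM in artery ECs against 205 to 254 CPM in capillary ECs. Mural cells carried 8 pericyte markers at 11227 to 12688 CPM, but also 6 endothelial markers at 2286 to 2938 CPM, where capillary ECs had 4928 to 5724 CPM. The 12 cardiomyocyte markers, of which all 12 had UMIs in capillary ECs, summed there to 156, 104, 445 and 149 CPM in NC libraries 1 and 2 and HFpEF libraries 1 and 2, so HFpEF library 1 stood apart. Scarb1 in capillary ECs measured 114 and 48.4 CPM in NC libraries 1 and 2 and 114 and 53.7 CPM in HFpEF libraries 1 and 2, so that library 1 was above library 2 under both diets, and the same split stood in artery ECs, vein ECs and mural cells. The study itself reports lower Scarb1 in capillary ECs of double-floxed than of single-floxed mice under each diet. The labels give no genotype and the 3′ reads do not cover the floxed exon 2, so no library was given one. Whether the split between libraries 1 and 2 follows genotype was not tested. The libraries of a diet may thus differ by more than replicate error, and the spread used in the tests includes this difference. The 5 capillary markers did not overlap between the diets, at 7224 and 6739 CPM in NC libraries 1 and 2 of capillary ECs against 5256 and 4609 CPM in HFpEF libraries 1 and 2, and their part in the results was not tested. Any pair of libraries shared 10 to 42 cell barcodes.

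In capillary ECs, Pdk4 and Plin2 were higher in both HFpEF libraries than in both NC libraries. The estimates for Cpt1a, Acadm, Acadl, Hadha and Acot1 stayed within 0.14 log2 units of no change, with 95% intervals as wide as -0.47 to 0.74 (Acot1). The summed level of the 5 capillary markers of these cells was lower in both HFpEF libraries, as given above. None of the 9 genes passed an adjusted p of 0.05 by edgeR's quasi-likelihood test, and the share called among the 12409 genes tested was 0.0161% (0.00806% as higher in HFpEF). An unadjusted p under 0.05 was reached by 2 of 9, against 17.8% of all genes, and DESeq2 called 2 of the 8 genes to which it gave an adjusted p, Pdk4 and Plin2, against 2.62% of 9041 genes. The HFpEF libraries lay above the NC libraries without overlap in 2 of 9 genes, against 24.8% of all genes, and below them in 1 of 9, Hadha, against 25.7%. The median log2 fold change was 0.05 over the 9 genes and -0.0045 over all genes tested. The 2 of 9 with an unadjusted p under 0.05 and the 2 of 9 higher without overlap were thus close to the shares over all genes. The 2 of 8 called by DESeq2 lay above its share, and the 1 of 9 lower without overlap lay below. These departures were not tested.

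In the other classes edgeR called 1 gene of the 9, in mural cells. In all ECs together, 2 of 9 genes had an unadjusted p under 0.05 (18% of 12907 genes), 2 were higher without overlap (25.2%) and 0 lower (25.8%), and 0.0465% of all genes were called, 0.031% as higher. In artery ECs 3 of 9 had an unadjusted p under 0.05 (11.4% of 10573 genes), 2 were higher without overlap (21.4%) and 0 lower (21.7%), and 0.369% were called, 0.284% as higher. In vein ECs, where 8 of the 9 could be tested, 0 had an unadjusted p under 0.05 (8.73% of 7633 genes), Pdk4 was higher (19%) and Hadha lower (20.2%) without overlap, and 0.223% were called, 0.21% as higher. In mural cells, again with 8 tested, 1 had an unadjusted p under 0.05 (10.2%), and Pdk4, Plin2 and Angptl4 were higher without overlap (20.1%) and 0 lower (20%). In all ECs DESeq2 called 2 of 8 genes with an adjusted p, Pdk4 and Plin2 (3.02% of 8903 genes). Elsewhere it gave many of the 9 no adjusted p (NA), so that they could not be called. It called 0 of 7 in artery ECs (0.565% of all genes), where Pdk4 was NA with an unadjusted p of 0.0043, 0 of 1 in vein ECs (0.319%) and 0 of 3 in mural cells (0.601%).

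**Figure D1:**
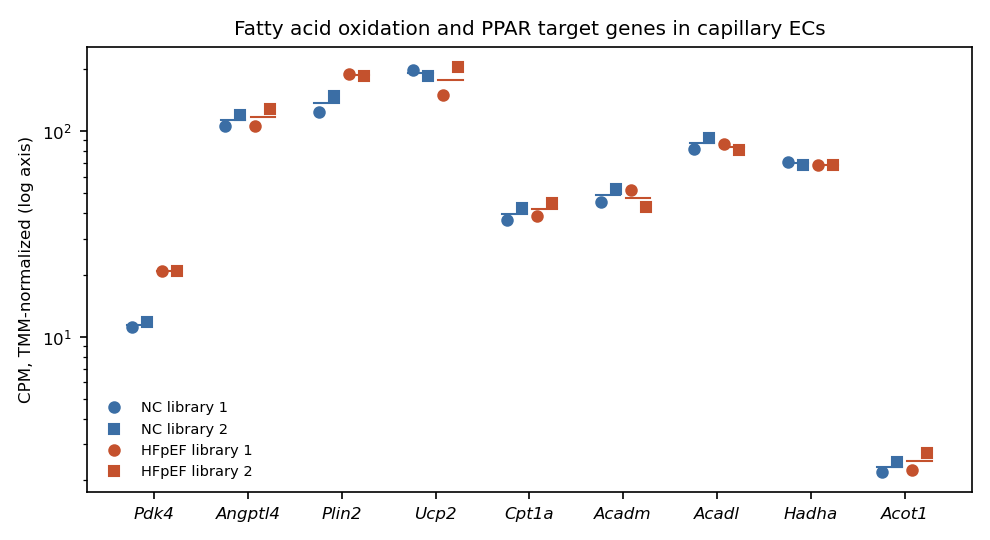
CPM of the 9 genes in capillary ECs, normalized with TMM factors, on a log axis, with 1 point per library and a bar at the mean of each diet (2 libraries each). Pdk4 goes from 11.1 and 11.8 CPM in NC to 20.8 and 20.9 CPM in HFpEF, and the points of Ucp2, Cpt1a, Acadm and Acadl overlap.

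Pdk4 (chr6:5483351-5496309, minus strand, GRCm38) encodes pyruvate dehydrogenase kinase 4, which shuts off the entry of glucose-derived pyruvate into the citrate cycle. In capillary ECs its level was 11.1 CPM in NC library 1, 11.8 in NC library 2, 20.8 in HFpEF library 1 and 20.9 in HFpEF library 2. Both HFpEF libraries were thus nearly double either NC library, and the libraries of a diet were close to each other. The log2 fold change was 0.87 (SE 0.12, 1.82-fold, 95% interval 0.59 to 1.15, unadjusted p = 0.00016, adjusted p = 0.093 with edgeR). Over 13 alternative settings it stayed between 0.72 and 0.91, and between 0.82 and 0.91 when a library was left out. Its adjusted p was 0.0049 with DESeq2 and 3.6e-06 with edgeR without the filter on low counts. Both settings called more genes in general, with 2.62% of 9041 genes for DESeq2 against 0.0161% of 12409 in the main setting. With all libraries kept, no other setting brought Pdk4 under 0.05. Without cells that held 2 or more cardiomyocyte-marker UMIs the log2 fold change was 0.81 (edgeR adjusted p = 0.064).

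Artery ECs showed the same order of libraries for Pdk4, with 7.12 and 8.18 CPM in NC libraries 1 and 2 and 18.7 and 18.3 CPM in HFpEF libraries 1 and 2. This was the widest Pdk4 difference of the 3 EC classes, a log2 fold change of 1.26 (SE 0.25, 2.40-fold, edgeR adjusted p = 0.061). With the library number as a block its adjusted p was 0.0054, in a fit that also called more genes in general. With all libraries kept, it was also under 0.05 without the filter on low counts and without cells holding cardiomyocyte-marker UMIs. The other settings that kept all libraries and gave a value left it above 0.05. Over 11 alternatives the log2 fold change stayed between 1.16 and 1.41. Vein ECs had 21.1 and 19.6 CPM in NC against 45.9 and 31.7 CPM in HFpEF, from 17, 15, 10 and 47 UMIs. Their log2 fold change was 0.77 (SE 0.37, edgeR adjusted p = 0.57). Mural cells had 1.91, 5.41, 10.2 and 8.61 CPM in the same order of libraries, from only 2, 7, 6 and 14 UMIs (log2 fold change 1.22, SE 0.66, edgeR adjusted p = 0.55). No class therefore passed the test for Pdk4. Its HFpEF libraries lay above its NC libraries in each of the 4 classes, which come from the same 4 libraries. In a single class 19% to 24.8% of all genes did so. The share that did so in all 4 classes was not computed.

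Shares of capillary ECs with a Pdk4 UMI depended on depth. Counted on all UMIs they were 3.85% and 4.65% in NC libraries 1 and 2 and 3.6% and 4.07% in HFpEF libraries 1 and 2. After each cell was thinned to 1000 UMIs, with 193, 161, 543 and 2932 shallower cells left out, they were 1.27% and 1.01% in NC against 1.66% and 1.87% in HFpEF. B cells gave 0 of 59 thinned cells, which allows a share of up to 5.08%, above all of these shares, so that they set no usable background. Unlike the CPM, the unthinned shares overlapped between the diets, and no direction was read from them.

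Plin2 (chr4:86648386-86670060, minus strand) encodes perilipin 2, a coat protein of lipid droplets. Capillary ECs contained 124 and 148 CPM in NC libraries 1 and 2 and 189 and 185 CPM in HFpEF libraries 1 and 2. The diets did not overlap, although the NC libraries differed more from each other than the HFpEF libraries did. The log2 fold change was 0.45 (SE 0.12, 1.37-fold, 95% interval 0.18 to 0.73, edgeR adjusted p = 0.16). DESeq2 gave an adjusted p of 0.044 and edgeR without the filter on low counts 0.016, within a range of 0.016 to 0.36 over 13 alternatives. In artery ECs the levels were 118 and 117 CPM in NC against 173 and 152 CPM in HFpEF (log2 fold change 0.45, SE 0.13, edgeR adjusted p = 0.21). Mural cells had 119 and 114 CPM in NC against 148 and 134 CPM in HFpEF, again without overlap. Their log2 fold change was 0.26 (SE 0.18, edgeR adjusted p = 0.67), and it ranged from 0.0018 to 0.35 over 13 alternatives. Vein ECs departed from this order of the diets, with 50.8 and 62.6 CPM in NC overlapping 41.3 and 64.7 CPM in HFpEF (log2 fold change 0.06, SE 0.27, edgeR adjusted p = 0.98).

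Angptl4 (chr17:33773750-33781830, minus strand) encodes a secreted inhibitor of lipoprotein lipase, the enzyme that frees fatty acids from triglycerides at the vessel wall. It was higher in HFpEF in mural cells, where its level was 35.4 and 43.3 CPM in NC libraries 1 and 2 and 88.5 and 88.6 CPM in HFpEF libraries 1 and 2, from 37, 56, 52 and 144 UMIs. Both HFpEF libraries were more than double either NC library, with a log2 fold change of 1.16 (SE 0.22, 2.23-fold, 95% interval 0.71 to 1.61, edgeR adjusted p = 0.0030). Angptl4 was the 1 gene of the 8 tested in mural cells that was called, where 1.01% of 8918 genes were called and 0.785% were called as higher in HFpEF. The call held in all 12 alternatives that gave an adjusted p (0.00038 to 0.028). DESeq2 gave a log2 fold change of 1.16 (unadjusted p = 0.00077) but no adjusted p (NA), because of its independent filtering.

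Pericyte-like cells, 1165 of the 1262 mural cells, carried most of these counts. Their Angptl4 level was 38.0 and 46.8 CPM in NC libraries 1 and 2 and 77.1 and 89.9 CPM in HFpEF libraries 1 and 2. Smooth muscle-like cells, 97 in all, held 1, 0, 9 and 12 Angptl4 UMIs. The 6 endothelial markers of mural cells stood at 2750 and 2858 CPM in NC against 2286 and 2938 CPM in HFpEF, the 8 pericyte markers at 11433 and 12688 CPM against 11227 and 11528 CPM, and both lists overlapped between the diets. Other lists in mural cells did not overlap, with 8 fibroblast markers at 180 and 181 CPM in NC against 284 and 219 CPM in HFpEF and 7 vein markers at 323 and 296 against 431 and 392 CPM. The 5 capillary markers (2547 and 2057 against 1948 and 1829 CPM) and the 8 artery markers (1664 and 1825 against 1235 and 1334 CPM) were lower in HFpEF. The part of these lists in the Angptl4 result was not tested. Cells were sorted for an RFP that depends on an endothelial Cre, and doublets were not called. Whether these mural cells include doublets with ECs was not tested. The 12 cardiomyocyte markers stood at 85.6, 128, 291 and 128 CPM, highest in HFpEF library 1, and without cells holding 2 or more of their UMIs the Angptl4 call remained. All 6 adipocyte markers were at 0 in mural cells.

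In capillary, artery and vein ECs the diets overlapped for Angptl4. Capillary ECs had 106 and 120 CPM in NC libraries 1 and 2 and 106 and 128 CPM in HFpEF libraries 1 and 2, which overlapped (log2 fold change 0.05, 95% interval -0.24 to 0.35, edgeR adjusted p = 0.85). Artery ECs had 64.5, 53.6, 60.6 and 91.8 CPM, with HFpEF library 2 alone above NC (log2 fold change 0.43, SE 0.19, edgeR adjusted p = 0.40, and 0.64 with an adjusted p of 0.040 without HFpEF library 1). Vein ECs had 96.7, 75.7, 36.7 and 122 CPM, so that the HFpEF libraries enclosed the NC libraries (log2 fold change 0.20, SE 0.28, edgeR adjusted p = 0.88, and -1.22 without HFpEF library 2). Outside these classes, and with no test, the HFpEF libraries exceeded the NC libraries without overlap in several groups of cells. These were the 1911 ECs that the gates put in no single class (51.3, 50.2, 63.1 and 136 CPM, from 6, 5, 18 and 189 UMIs), 107 proliferating ECs (77.5, 100.1, 135 and 117 CPM, from 27, 14, 3 and 33 UMIs) and 187 fibroblasts (45.2, 21.0, 105 and 52.7 CPM, from 9, 5, 9 and 16 UMIs). The same order stood in 1158 cells of mixed markers (65.6, 61.4, 136 and 84.3 CPM) and 1369 unassigned cells (24.3, 26.1, 90.6 and 143 CPM, from 3, 2, 16 and 97 UMIs). It also stood in 355 erythroid cells (55.6, 0, 78.8 and 112 CPM, from 3, 0, 3 and 83 UMIs). In lymphatic and endocardial ECs, myeloid cells and T cells the diets overlapped. The share of all genes higher without overlap was not computed in these untested classes, and was 19% to 25.2% in the tested ones. A higher level in HFpEF was thus also seen outside mural cells, without a test. Apart from the mixed cells, it rested on 27 or fewer Angptl4 UMIs in each NC library.

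**Figure D2:**
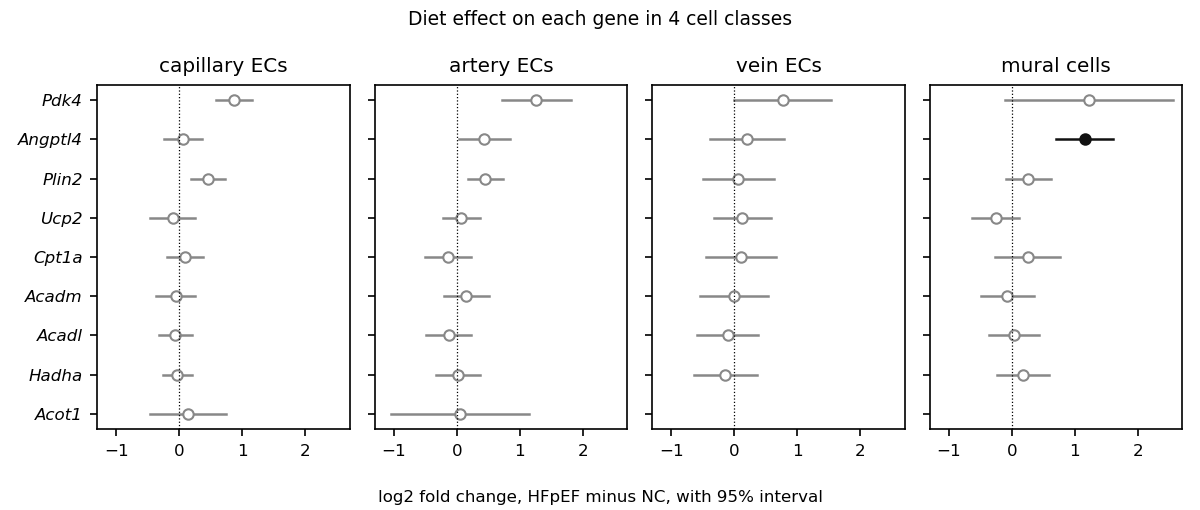
Log2 fold change of HFpEF against NC for each gene (points) with its 95% interval (lines) in 4 cell classes, from 2 libraries per diet. The filled point, Angptl4 in mural cells at 1.16, is the value with an adjusted p under 0.05, and Acot1 was too low to be tested in vein ECs and mural cells.

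Whether the effect of diet differed between classes was tested in a joint fit of 16 sums, 4 classes from each of 4 libraries. For Angptl4, the effect in mural cells exceeded that in capillary ECs by 1.04 log2 units (SE 0.24, unadjusted p = 0.00011), with an edgeR adjusted p of 0.052 that just missed the threshold. Among 10464 genes, 0.201% were called in this contrast, and the Angptl4 adjusted p was under 0.05 in 4 of 8 alternatives (0.00099 to 0.40), 2 of which left out an NC library. For Pdk4, the effect differed from that in capillary ECs by 0.40 in artery ECs (SE 0.26), -0.12 in vein ECs (SE 0.34) and 0.38 in mural cells (SE 0.56), each far from the threshold with an edgeR adjusted p of 0.98 or more. The Plin2 effect in vein ECs was lower than in capillary ECs by 0.32 log2 units on average (difference -0.32, SE 0.23, edgeR adjusted p = 0.97). None of the 8 genes in the joint fit, which lacked Acot1, was called in any of the 3 contrasts. The shares called against capillary ECs were 0.0382% for artery and 0.00956% for vein ECs.

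**Figure D3:**
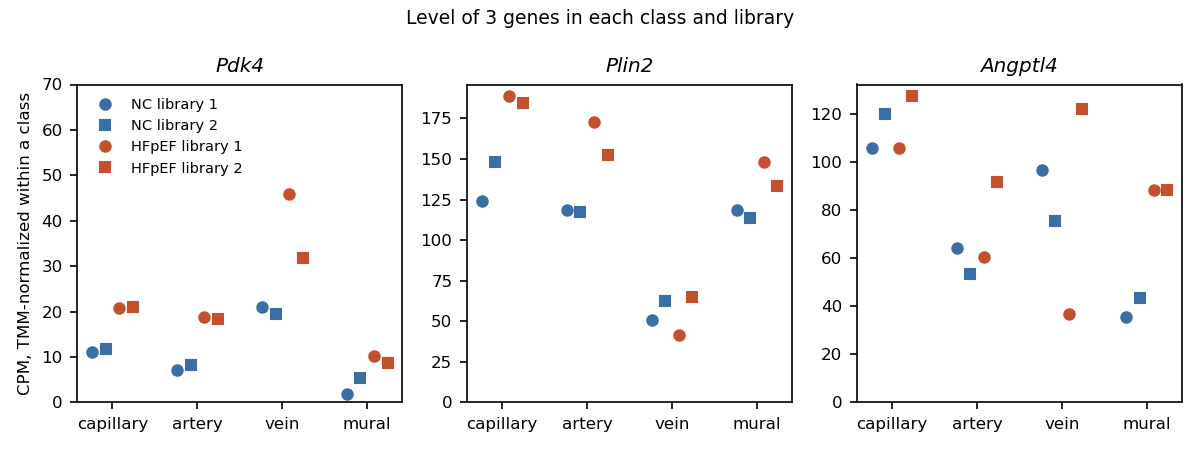
Level of Pdk4, Plin2 and Angptl4 (CPM, TMM factors taken within a class) in each class, 1 point per library with circles for library 1 and squares for library 2. Among these 4 classes, Pdk4 is higher in HFpEF in each, Plin2 is lowest in vein ECs, and the diets do not overlap for Angptl4 in mural cells.

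Ucp2 (chr7:100493337-100502020, plus strand) encodes a carrier of the inner mitochondrial membrane. Its level in capillary ECs was 198 and 184 CPM in NC libraries 1 and 2, against 149 and 204 CPM in HFpEF libraries 1 and 2. The HFpEF libraries enclosed the NC libraries, and the log2 fold change was -0.11 (95% interval -0.47 to 0.25, edgeR adjusted p = 0.74). Its range over the 4 libraries was 200 to 247 CPM in artery ECs, 119 to 211 CPM in vein ECs and 97.0 to 161 CPM in mural cells. The diets overlapped in all of these classes.

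Cpt1a (chr19:3322334-3385733, plus strand) forms the acylcarnitines in which long-chain fatty acids enter mitochondria. Capillary ECs had 36.9 and 42.1 CPM in NC libraries 1 and 2 and 38.8 and 44.8 CPM in HFpEF libraries 1 and 2. The libraries overlapped, with library 2 the higher of each diet (log2 fold change 0.09, 95% interval -0.19 to 0.37, edgeR adjusted p = 0.72). The gene ranged from 42.2 to 53.9 CPM in artery ECs, from 50.8 to 64.2 CPM in vein ECs and from 29.7 to 54.1 CPM in mural cells.

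Acadm (chr3:153922357-153944632, minus strand) and Acadl (chr1:66830839-66863277, minus strand) are the medium-chain and long-chain acyl-CoA dehydrogenases, which open each round of beta-oxidation. Acadm in capillary ECs was at 45.1 and 52.1 CPM in NC libraries 1 and 2 and at 51.6 and 42.5 CPM in HFpEF libraries 1 and 2. Acadl was at 81.8 and 92.9 CPM in NC against at 86.8 and 80.8 CPM in HFpEF. Both enzymes overlapped between the diets, with log2 fold changes of -0.06 for Acadm (95% interval -0.37 to 0.25, edgeR adjusted p = 0.85) and -0.06 for Acadl (-0.32 to 0.20, edgeR adjusted p = 0.80).

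Hadha (chr5:30118304-30155162, minus strand), the alpha subunit of the mitochondrial trifunctional protein that carries out later steps of the cycle, had the smallest log2 fold change of the 9 genes in these cells. Capillary ECs had 70.9 and 68.5 CPM in NC libraries 1 and 2 and 68.1 and 68.4 CPM in HFpEF libraries 1 and 2. Although the diets did not overlap, their nearest libraries differed only in the first decimal (log2 fold change -0.03, 95% interval -0.26 to 0.20, edgeR adjusted p = 0.89). In the other classes the 3 enzymes ranged over the libraries from 43.9 CPM (Acadm in artery ECs) to 114 CPM (Acadm in mural cells), with edgeR adjusted p from 0.78 to 1.00.

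Acot1 (chr12:84009490-84018371, plus strand), a cytosolic thioesterase that splits long-chain acyl-CoA, had the fewest counts behind its values. Its level in capillary ECs was 2.19 and 2.46 CPM in NC libraries 1 and 2 and 2.24 and 2.73 CPM in HFpEF libraries 1 and 2. The libraries overlapped, and the interval was wide (log2 fold change 0.14, 95% interval -0.47 to 0.74, edgeR adjusted p = 0.81). A difference of this size could not be told from no change. Artery ECs had 2.39 to 4.46 CPM. Its neighbour Acot2 is a close paralog, with which the main Acot1 transcript shares 22.0% of its 60-base windows over its full length but 0 of 441 in the last 500 bases, the end that this assay reads.

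Levels between classes were compared within a library, as the log2 ratio of CPM with a prior of 1 CPM. With 4 libraries the exact two-sided sign-flip permutation test cannot give a p below 0.125, and after adjustment over 27 ratios the smallest was 0.199. Of these ratios, 17 had the same sign in 4 of 4 libraries. Levels of different genes are not compared here, since a 3′ assay counts transcript ends and the ease of capture varies from gene to gene.

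Among the 4 classes Pdk4 was highest in vein ECs, followed by capillary ECs, artery ECs and mural cells, in every library. Capillary ECs differed from vein ECs by a mean log2 ratio of -0.78 ± 0.23 (SD over 4 libraries, exact permutation p = 0.125), from artery ECs by 0.35 ± 0.21 and from mural cells by 1.32 ± 0.50. Plin2 had the opposite place in vein ECs, where it was lowest in every library, and capillary ECs exceeded vein ECs by a log2 ratio of 1.57 ± 0.43 (n = 4). Its ratio to artery ECs was 0.20 ± 0.12 and to mural cells 0.33 ± 0.18, and artery ECs and mural cells changed places between libraries.

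Of the 4 classes, Angptl4 was highest in capillary ECs in every library, with log2 ratios of 0.78 ± 0.28 over artery ECs, 0.62 ± 0.67 over vein ECs and 0.96 ± 0.65 over mural cells (SD, n = 4). The ratio to mural cells spanned 0.28 to 1.56, its lower values in HFpEF. Acadm was higher in mural cells than in capillary ECs in 4 of 4 libraries, with a log2 ratio of capillary ECs to mural cells of -0.90 ± 0.18 (n = 4). Cpt1a was lower in capillary than in vein ECs in 4 of 4 libraries (-0.45 ± 0.16), and Ucp2 was lower in capillary than in artery ECs (-0.29 ± 0.15) and higher than in mural cells (0.55 ± 0.16). Hadha had no ratio of 1 sign in 4 of 4 libraries, and for Acadl this held for vein ECs alone (0.11 ± 0.11).

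A further 80 genes of the pathway in 7 lists gave the setting of these 9. In capillary ECs 64 of the 80 were tested, and 0 were called with edgeR in either direction. An unadjusted p under 0.05 was reached by 9 higher and 9 lower in HFpEF, 28.1% in all against 17.8% of all genes, and the diets did not overlap in 14 higher and 22 lower genes, against 24.8% and 25.7% of all genes. The median log2 fold change of the 64 was -0.08, beside -0.0045 over all genes tested. None of the listed genes was called in artery ECs (58 tested), vein ECs (52) or mural cells (59), where an unadjusted p under 0.05 was reached by 12 of 58 (20.7%, against 11.4% of all genes), 3 of 52 (5.77%, against 8.73%) and 7 of 59 (11.9%, against 10.2%).

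Receptors and coactivators had 10 of 12 genes tested, without Ppara and Ppargc1a, and a median log2 fold change of -0.06. Pparg, the receptor best known from adipocytes, was at 160 and 134 CPM in NC libraries 1 and 2 of capillary ECs. HFpEF libraries 1 and 2 had 128 and 130 CPM, lower without overlap, as were 25.7% of all genes. Ppard, the widely expressed form, overlapped between the diets (log2 fold change -0.17, SE 0.14). The carnitine shuttle had a median of -0.25 over 5 tested genes, of which 2 were higher and 3 lower in HFpEF without overlap. Mitochondrial beta-oxidation had a median of -0.11 over 13 genes, with 2 higher and 4 lower. Its member Hadhb, the partner subunit of Hadha, was among the 2 higher and was named after its values were seen. Hadhb was at 66.3 and 72.0 CPM in NC against 83.3 and 88.2 CPM in HFpEF. Peroxisomal oxidation had a median of -0.13 over 7 genes, with 2 higher and 3 lower. Of all genes tested in capillary ECs, 24.8% were higher and 25.7% lower without overlap. How these lists depart from those shares was not tested.

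Among the acyl-CoA synthetases and thioesterases (median -0.0055 over 9 genes) were 2 of the largest differences toward HFpEF. The mitochondrial thioesterase Acot2 was at 11.8 and 11.0 CPM in NC libraries 1 and 2 and at 15.2 and 21.0 CPM in HFpEF libraries 1 and 2 (log2 fold change 0.70, SE 0.17, edgeR adjusted p = 0.16). The synthetase Acsl4, which prefers polyunsaturated fatty acids, was at 19.6 and 23.9 CPM in NC against 29.2 and 30.5 CPM in HFpEF (log2 fold change 0.46, SE 0.13, edgeR adjusted p = 0.17). Acot2 and Acsl4 were named for large differences without overlap, so the absence of overlap was fixed by that choice. Of all genes in capillary ECs, 24.8% were higher without overlap. The HFpEF libraries were closer to each other for Acsl4 than for Acot2. Acot2 was also higher in HFpEF without overlap in vein ECs (12.4, 14.3, 32.1 and 36.4 CPM, edgeR adjusted p = 0.18) and in mural cells (20.1, 20.1, 28.9 and 43.7 CPM, edgeR adjusted p = 0.13). In artery ECs it overlapped, at 10.7 and 11.1 CPM in NC against 10.7 and 22.7 CPM in HFpEF (edgeR adjusted p = 0.29). Of all genes, 19% in vein ECs and 20.1% in mural cells were higher in HFpEF without overlap. The vein ECs of HFpEF library 1 numbered only 87.

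Lipid droplets and lipolysis (median -0.01 over 10 genes) held genes at both ends. Hilpda, a droplet protein that inhibits adipose triglyceride lipase, was at 35.8 and 36.0 CPM in NC libraries 1 and 2 and at 45.3 and 62.6 CPM in HFpEF libraries 1 and 2 (log2 fold change 0.61, SE 0.15, edgeR adjusted p = 0.16). Pnpla2, that lipase itself, was at 181 and 166 CPM in NC against at 128 and 127 CPM in HFpEF (log2 fold change -0.44, SE 0.10, edgeR adjusted p = 0.14). Dgat1, which makes triglycerides, was at 16.5 and 15.4 CPM in NC against at 11.0 and 11.1 CPM in HFpEF (log2 fold change -0.53, SE 0.13, edgeR adjusted p = 0.16). Plin2 and Hilpda were thus higher and Pnpla2 and Dgat1 lower in HFpEF, without passing the edgeR test. Hilpda, Pnpla2 and Dgat1 were named for large differences without overlap, so the absence of overlap was fixed by that choice. Over the whole list 2 of 10 tested genes were higher and 4 lower without overlap, against 24.8% and 25.7% of all genes. DESeq2 called Hilpda and Pnpla2, where it called 2.62% of 9041 genes.

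Other PPAR-responsive genes had a median of -0.03 over 10 tested genes. Mlycd, the malonyl-CoA decarboxylase that relieves the inhibition of carnitine palmitoyltransferase, was at 19.1 and 24.5 CPM in NC libraries 1 and 2 and at 16.8 and 14.8 CPM in HFpEF libraries 1 and 2 (log2 fold change -0.48, SE 0.15, edgeR adjusted p = 0.19). The other pyruvate dehydrogenase kinases did not share the Pdk4 pattern as a group. Pdk1 was at 23.7, 25.0, 34.6 and 27.8 CPM, higher in HFpEF without overlap, Pdk2 at 8.63, 7.10, 7.52 and 5.09 CPM and Pdk3 at 4.72, 5.38, 4.75 and 5.40 CPM. The fatty acid transporter Cd36 was at 4967 and 4770 CPM in NC against 5295 and 5623 CPM in HFpEF, without overlap (log2 fold change 0.17). Like Pdk1 and Cd36, 24.8% of all genes in these cells were higher in HFpEF without overlap.

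**Figure D4:**
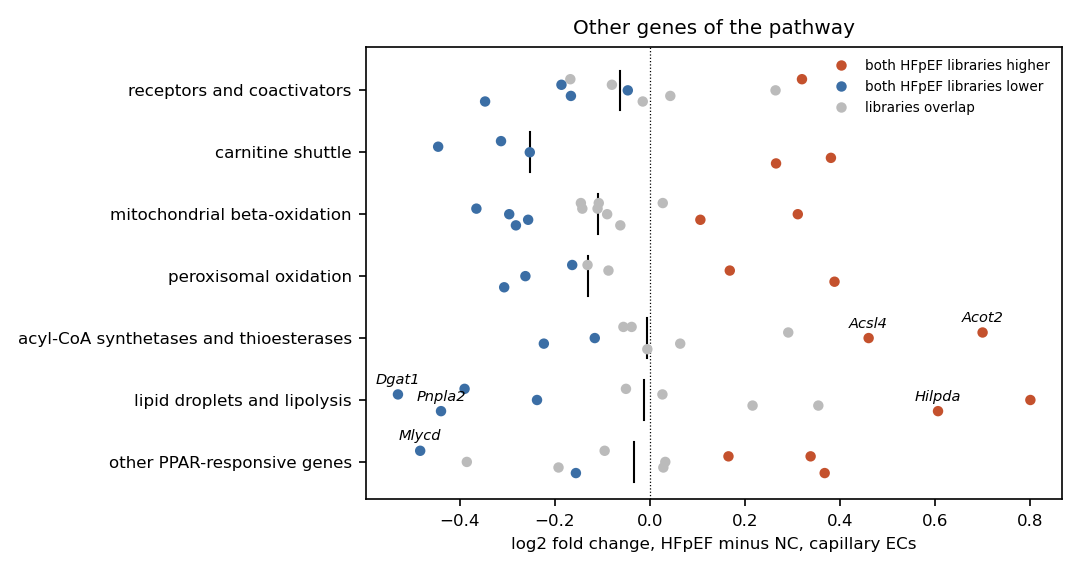
Log2 fold change of HFpEF against NC in capillary ECs for each tested gene of 7 pathway lists, with a black bar at the median of a list and colour for genes whose diets did not overlap. Named are the genes with the largest differences among those with at least 10 CPM and no overlap, from Acot2 at 0.70 to Dgat1 at -0.53, and no point passed the test.

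The 5 genes whose level followed Pdk4 most closely over the 16 sums of class and library were Sox7 (Pearson's r = 0.94), Cd47 (0.93), Mcl1 (0.93), Irgm2 (0.93) and Iigp1 (0.92), among 8068 genes with a mean of at least 10 CPM. These points share libraries, diet and depth, and they span the cell classes, so class order enters the r, which is a description. Sox7, an endothelial transcription factor, was at 166 and 164 CPM in NC against 243 and 182 CPM in HFpEF in vein ECs. In mural cells Sox7 was at 61.9 and 59.4 CPM in NC against 94.2 and 85.6 CPM in HFpEF. Its highest and lowest class were those of Pdk4, which its choice by r already favoured. Of the other members, Cpt1a had the highest r with Pdk4 (0.63) and Acadm the lowest (-0.38).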

How the data were processed

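The deposited values were UMI counts per gene and cell from 4 libraries (11163876 to 48003732 UMIs), which the authors obtained with fastp and Cell Ranger 5.0.1 on mm10 with Ensembl 100 after downsampling reads between samples. They were not divided by library size. Cells with over 200 genes and under 20% mitochondrial UMIs were kept. Classes came from marker gates whose thresholds were set on the data (ECs 2 or more endothelial UMIs, and other lineages 3 or more UMIs from at least 2 markers). Doublets were not called. UMIs were summed per library and class and tested with edgeR 4.0.16 (R 4.3.3; TMM, filterByExpr, quasi-likelihood, Benjamini-Hochberg over all genes tested, call under 0.05), with diet as the only term. DESeq2 1.42.0, other normalization, filters, gates, thinning and a replicate block were alternatives. Intervals of shares are exact and cover counting error only.

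Pathway genes were named when called, or otherwise as up to 3 of the largest rises and 3 of the largest falls in capillary ECs with at least 10 CPM and no overlap. Pparg, Ppard, Hadhb, Cd36 and Pdk1 to Pdk3 were added after their values were seen. The members and lists were chosen with earlier results of these data known. On simulated counts, 200 genes with a mean over 10 CPM were set 1 log2 unit apart. Of these, 195 were recovered in capillary ECs (12409 genes) and 97 in mural cells (8918 genes). Unchanged genes made 17 of the 212 calls in capillary ECs and 11 of the 108 calls in mural cells. Each gene was drawn independently, so differences shared by many genes of a library were not simulated. In capillary ECs the simulation gave 212 calls, whereas the data gave 2, and an adjusted p is easier to reach when many genes change. The recovery therefore does not give the chance that a gene changed by 1 log2 unit was called in capillary ECs. The recovery does not cover genes under 10 CPM, such as Acot1.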

Additional observations from a re-analysis of the deposited data

How the results depend on the processing

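With 2 libraries per diet, the number of genes called depended on the settings more than the values of single genes did. The labels do not say what the library number stands for. Scarb1 split by it under both diets. Over all genes the deviations of same-numbered libraries from the diet means correlated at 0.03 in all ECs, 0.08 in capillary, 0.02 in artery and -0.02 in vein ECs and mural cells. A difference limited to a small set of genes would hardly move a correlation over all genes. What the library number stands for was therefore not tested. A replicate block changed the genes called from 6 to 126 in all ECs, from 39 to 189 in artery ECs and from 2 to 3 in capillary ECs, and it brought Pdk4 under the threshold in all ECs and artery ECs. DESeq2 called 269 genes in all ECs, 237 in capillary, 25 in artery, 5 in vein ECs and 11 in mural cells, against 6, 2, 39, 17 and 90 with edgeR. Without the filter on low counts edgeR called 665 in all ECs, 1006 in capillary, 133 in artery and 67 in vein ECs. Thinning gave 46 in capillary, 15 in artery, 6 in vein ECs and 33 in mural cells. The stricter gate gave 10 in capillary and 0 in vein ECs, and omission of cells with cardiomyocyte-marker UMIs gave 10 in all ECs, 19 in capillary and 6 in vein ECs. No filter on cells gave 27 in vein ECs. Leaving out each library in turn gave 1 (without NC 2) to 175 (without HFpEF 1) genes in all ECs, 21 (NC 1) to 466 (HFpEF 1) in capillary, 118 (HFpEF 2) to 269 (NC 2) in artery, 34 (HFpEF 2) to 78 (HFpEF 1) in vein ECs and 74 to 91 in mural cells. The difference between classes had 26 calls over its 3 contrasts, 121 without the filter on low counts, 13 after thinning and 0 (without HFpEF 2) to 115 (without NC 1) when a library was left out. The number of class ratios with 1 sign throughout was 17 and stayed within 1.5 times of it.

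Of 426 alternative values for single genes, 380 kept their direction and, where tested, their side of the threshold. A further 28 passed the threshold in addition, 0 fell back and 18 changed sign. For the 17 class ratios among them, with 7 alternatives each, only the sign was compared. Angptl4 in mural cells was the only one of these results called in the main setting, so it alone could fall back. Sign changes on leaving out a library came from values near 0 in capillary ECs, with ranges of -0.091 to 0.18 for Angptl4, -0.36 to 0.092 for Ucp2, -0.026 to 0.19 for Cpt1a, -0.19 to 0.088 for Acadm, -0.15 to 0.034 for Acadl and -0.053 to 0.23 for Acot1. In vein ECs the ranges were -0.45 to 0.22 for Plin2 and -1.22 to 0.50 for Angptl4. Thinning turned Acadm (0.0070) and Hadha (0.066) in capillary ECs and the Acot1 ratio of capillary to vein ECs (1.10) and to mural cells (0.15). Plin2 in vein ECs was -0.050 with the block and -0.020 without cells with cardiomyocyte-marker UMIs. The cause of these changes was not tested. Depth and diet cannot be told apart, since both HFpEF libraries had fewer UMIs per cell. Mural cells numbered 209 to 564 per library, which limits genes under about 10 CPM there.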

Other observations

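Ucp2 was most abundant outside the blood vessel wall classes. In myeloid cells it was at 690, 829, 762 and 710 CPM in NC libraries 1 and 2 and HFpEF libraries 1 and 2, from 3, 26, 12 and 64 cells. In lymphatic ECs, 89 cells in all, Ucp2 was at 857 and 491 CPM in NC and at 247 and 330 CPM in HFpEF, without overlap, from 86, 56, 12 and 45 UMIs. This lymphatic difference was not tested. Plin2 was at 341 to 591 CPM in myeloid cells. In lymphatic ECs Plin2 was at 49.8 and 43.8 CPM in NC libraries 1 and 2 and at 103 and 95.4 CPM in HFpEF libraries 1 and 2. These values rested on only 5, 5, 5 and 13 UMIs, and the difference was not tested. The share of all genes without overlap was not computed in lymphatic ECs. Pdk4 and Angptl4 had no UMI in B cells in any library (74 cells).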
